A study of Mus musculus with 11 samples.

Results

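Sparsely placed objects are segmented outlines that lie almost alone in the tissue. They were chosen by position: an object with a volume of at least 100 µm3 was a member when no more than 2 other such objects had their centres within 25 µm of its own. Objects within 100 µm of the tissue edge were left out, and no minimum was set on transcripts. The rule was applied to the 3 sections of 1 imaging run, CONTROL 3, CONTROL ICI 3 and MELANOMA ICI 1. It found 17551 members, 6822 in CONTROL 3, 3146 in CONTROL ICI 3 and 7583 in MELANOMA ICI 1, among the 116192 objects of these sections and the 831598 of the whole series. The remaining 97756 kept objects served as the comparison, and 9331 of them were packed, which here means that they had 12 or more neighbours within 25 µm.

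The study imaged hippocampal sections by MERFISH, which reads single RNA molecules where they lie, by rounds of fluorescent probes that spell a barcode. All mice were male C57Bl/6 animals of 10 to 12 weeks. The CONTROL 3 mouse received isotype antibodies. The CONTROL ICI 3 mouse received immune checkpoint inhibitors, anti-CTLA-4 at 1 mg 3 times a week with anti-PD-1 at 200 µg 2 times a week. The MELANOMA ICI 1 mouse received the same inhibitors for 3 weeks, starting 1 week after 500000 D4M-3A.UV2 melanoma cells were injected intradermally on both sides. The 8 sections of the other imaging runs hold 2 further CONTROL, 2 CONTROL ICI and 2 MELANOMA ICI sections, and 2 MELANOMA sections, whose mice carried the tumour and received isotype antibodies. Each group has 1 section in the run of the rule or none, so no test compares the groups there. The labels do not say whether sections of a group come from separate mice, so p-values over sections measure the spread between sections, which may be technical.

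The hippocampus places its principal neurons in thin, crowded sheets, the pyramidal cell layer of the hippocampus proper and the granule cell layer of the dentate gyrus. Between these sheets lie broad layers of dendrites and axons, where cell bodies are far apart and belong mainly to glia, vessels and scattered interneurons. Whether the members lie in such layers was not tested. Tissue covered 23.8 mm2 in CONTROL 3, 8.80 mm2 in CONTROL ICI 3 and 22.2 mm2 in MELANOMA ICI 1. How much of it is hippocampus was not determined, and members may lie outside it. The tables used here give transcripts per object without gene names. No member could therefore be assigned to a cell type, and the labelled tissue could not be checked against markers. Measures that the rule did not use were transcripts, DAPI, a dye for DNA in nuclei, PolyT, a stain for polyadenylated RNA, and anisotropy, a ratio of axes that is 1 for a round outline.

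The 3 sections differed in size and depth. CONTROL 3 held 53522 objects and 3164943 transcripts, CONTROL ICI 3 held 16416 objects and 349960 transcripts, and MELANOMA ICI 1 held 46254 objects and 1773374 transcripts. CONTROL ICI 3 was thus the smallest and shallowest of them. No object identifier was shared among the 11 sections. CONTROL ICI 3 and MELANOMA ICI 1 shared 2 imaging fields and their nearest objects lay 0.769 µm apart, with 155 and 83 objects within 100 µm of the other section. Without these objects the mean log2 ratio of transcripts between members and other objects was -1.27, the same as with them.

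Sparse placement was a minority state in every section. Members made up 12.8% of kept objects in CONTROL 3 (exact 95% binomial interval 12.6% to 13.1%), 19.4% in CONTROL ICI 3 (18.8% to 19.98%) and 16.5% in MELANOMA ICI 1 (16.2% to 16.9%). These intervals cover counting error only. The share was highest in CONTROL ICI 3, which also had the most tissue area per object. The square root of that area was 23.2 µm, against 21.1 µm in CONTROL 3 and 21.9 µm in MELANOMA ICI 1. Packed objects were most frequent in CONTROL ICI 3 too, at 13.9% of kept objects against 5.89% and 8.57%, so its objects were not simply farther apart. Members held 9.93%, 8.87% and 11.1% of the kept objects' transcripts in CONTROL 3, CONTROL ICI 3 and MELANOMA ICI 1, but 15.3%, 23.5% and 19.5% of their volume.

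The members were not spread evenly. In imaging fields with at least 20 kept objects, the median field had 11.4% sparse objects in CONTROL 3, 18.9% in CONTROL ICI 3 and 15.6% in MELANOMA ICI 1. The highest field reached 86.4%, 85.7% and 100% in the same order, and sparse objects were at least 50% of 24 of 531, 26 of 180 and 45 of 496 fields. A member's distance to the nearest packed object had a median of 231 µm in CONTROL 3, 200 µm in CONTROL ICI 3 and 240 µm in MELANOMA ICI 1. The 25th percentile of that distance was 136, 113 and 139 µm. Members and packed objects were both defined by neighbours within 25 µm, so some separation is built in. The distance was not taken for the other kept objects, so these values are a description of the members only.

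**Figure D1:**
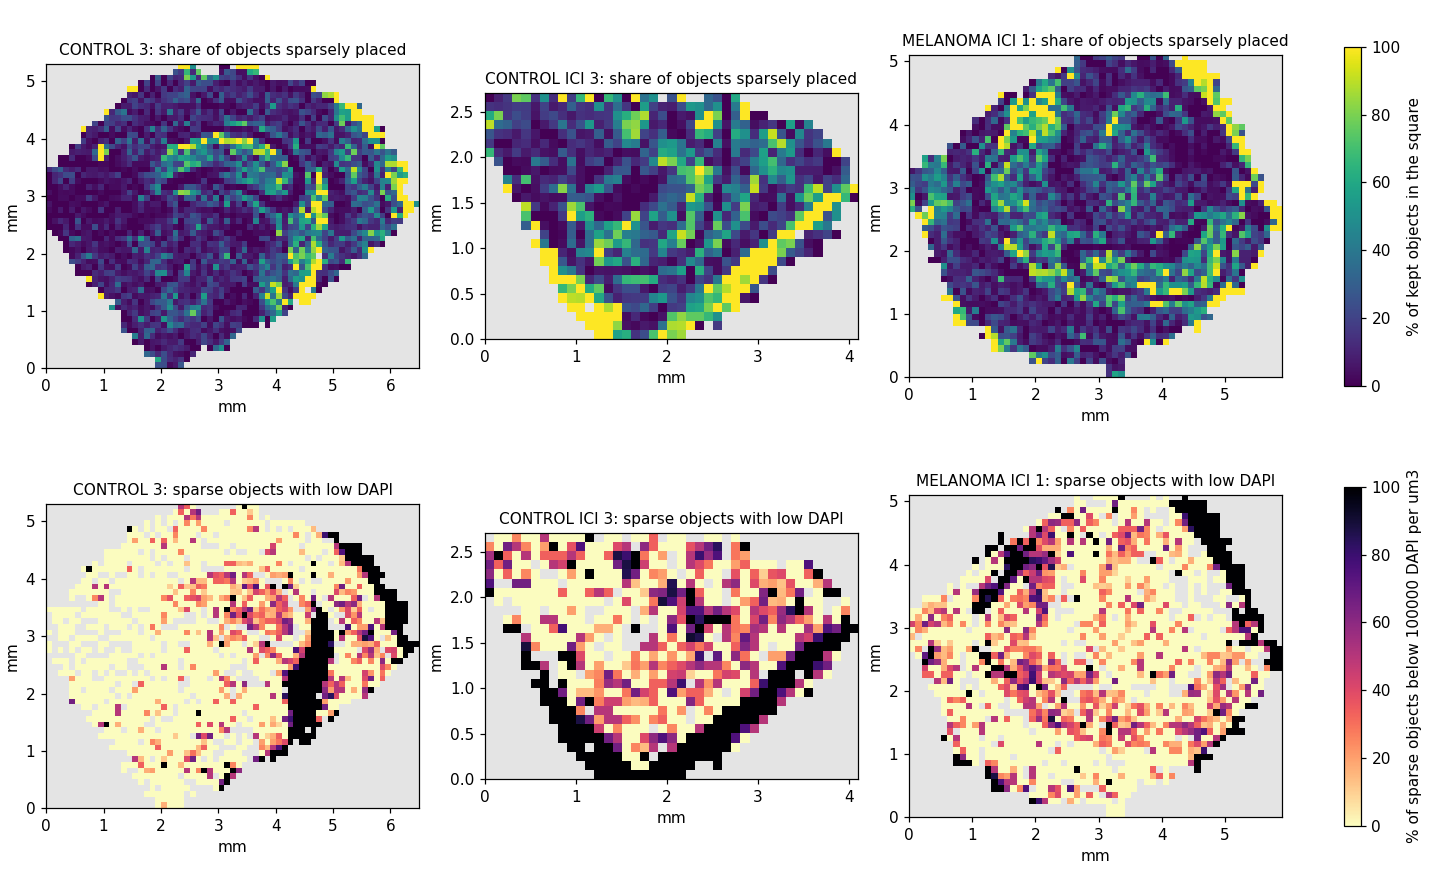
Maps of the 3 sections in squares of 100 µm, with both axes in mm. The upper row gives the percentage of kept objects that were sparsely placed and the lower row the percentage of sparse objects with DAPI under 100000 per µm3; grey squares hold no object of that kind. Sparse objects form curved zones. Squares in which at least 80% of at least 3 kept objects had low DAPI form patches. The largest covers 0.80 mm2 in CONTROL 3, 0.33 mm2 in CONTROL ICI 3 and 0.38 mm2 in MELANOMA ICI 1. All such squares together hold 43.1%, 36.5% and 20.6% of the sparse objects with low DAPI, in the same order.

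The DAPI signal was low for a large share of the members, and whether these are cells was not tested. DAPI per µm3, in the arbitrary units of the deposited stain values, formed 2 peaks among members in each section. The lower peak lay at 66834 in all 3 sections and the upper at 375837 in CONTROL 3, 334965 in CONTROL ICI 3 and 421697 in MELANOMA ICI 1. A limit of 100000, chosen after the histograms were seen, separates the 2 peaks. Below it lay 1516 members of CONTROL 3, or 22.2% (exact 95% binomial interval 21.2% to 23.2%), 1350 of CONTROL ICI 3, or 42.9% (41.2% to 44.7%), and 1853 of MELANOMA ICI 1, or 24.4% (23.5% to 25.4%). Among the other kept objects the shares were 3.81%, 6.85% and 3.71%. Low DAPI was more frequent among members in each section, and members made up 46.2%, 60.1% and 56.5% of all kept objects with low DAPI. Within 20% of the limit lay 9.56%, 12.9% and 11.7% of members. At a limit of 80000 the shares of members were 16.4%, 34.2% and 16.4%, and at 130000 they were 27.7%, 48.6% and 29.7%, with CONTROL ICI 3 highest each time.

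**Figure D2:**
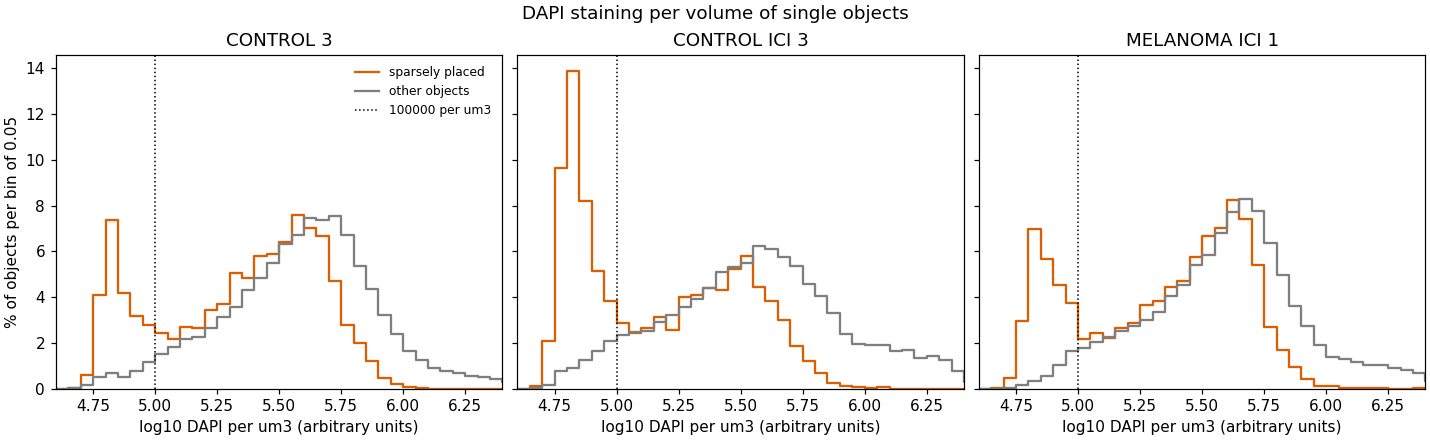
Distribution of DAPI per µm3 (log10 of arbitrary units, bins of 0.05) for sparsely placed and other objects, as a percentage of each set, in the 3 sections. The dotted line marks 100000 per µm3, and the peak to its left holds 22.2% of members in CONTROL 3, 42.9% in CONTROL ICI 3 and 24.4% in MELANOMA ICI 1.

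Members with low DAPI mostly had no assigned transcript. None at all was assigned to 54.9% of them in CONTROL 3, 67.3% in CONTROL ICI 3 and 52.8% in MELANOMA ICI 1, and the median was 0 transcripts in each section. At least 10 transcripts were found in 26.5%, 10.4% and 21.3% of them. Their PolyT per µm3 was lower than that of other members, with medians of 208017, 214225 and 221846 against 259581, 263102 and 266557. How much of this signal is background was not tested. Their outlines were of similar or larger size than those of other members, with median volumes of 1831, 2028 and 1982 µm3 against 1888, 1641 and 1852 µm3. They were rounder, with a median anisotropy of 1.14, 1.10 and 1.12 against 1.27, 1.26 and 1.25. Whether such outlines hold cells was not tested, and the members are called objects here for that reason.

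Larger outlines held more transcripts among members with more DAPI, and not clearly so among those with low DAPI. Across members with DAPI at or above 100000, Spearman's rho between transcripts and volume was 0.61 in CONTROL 3 (n = 5306 objects), 0.53 in CONTROL ICI 3 (n = 1796) and 0.59 in MELANOMA ICI 1 (n = 5730). Across members with low DAPI it was -0.01 (n = 1516), 0.15 (n = 1350) and 0.003 (n = 1853). These are descriptions of objects that share a section, a segmentation and a depth. A transcript count tied at 0 for most members with low DAPI leaves little to rank.

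Low DAPI clustered in space. Of the 10 objects nearest to a member with low DAPI, a mean of 57.6% in CONTROL 3, 59.3% in CONTROL ICI 3 and 40.8% in MELANOMA ICI 1 had low DAPI themselves, against 7.12%, 17.0% and 11.2% around other members. Squares of 100 µm in which at least 80% of at least 3 kept objects had low DAPI numbered 139 of 2266, 92 of 806 and 81 of 2099. Objects in those squares were sparse in 55.2%, 79.6% and 78.7% of cases, against 11.9%, 16.9% and 15.8% elsewhere. Some of this excess is built in, since low DAPI was more frequent among members and a square needed only 3 objects. All objects of those squares together held 220 transcripts in CONTROL 3, 442 in CONTROL ICI 3 and 453 in MELANOMA ICI 1.

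These squares with few assigned transcripts accounted for only some of the members with low DAPI, 43.1% in CONTROL 3, 36.5% in CONTROL ICI 3 and 20.6% in MELANOMA ICI 1. Inside them, 90.8%, 86.6% and 90.0% of those members had no transcript, while their median PolyT per µm3 was 199125, 208333 and 208227. Outside them the share was 27.7% in CONTROL 3, with a median of 8 transcripts, 56.1% in CONTROL ICI 3, with a median of 0, and 43.1% in MELANOMA ICI 1, with a median of 2. Members with low DAPI thus differed by place, and outside the squares most of those in CONTROL 3 and MELANOMA ICI 1 held at least 1 transcript.

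The largest patch in CONTROL 3 lay well inside the section, with a median distance of 874 µm to the outline, while those of CONTROL ICI 3 and MELANOMA ICI 1 lay near it, at 234 and 194 µm. Nearness to the outline went with low DAPI. At 100 to 200 µm from the edge, 41.6% of members in CONTROL 3, 61.9% in CONTROL ICI 3 and 49.1% in MELANOMA ICI 1 had low DAPI, and beyond 800 µm the shares were 19.9%, 35.3% and 18.1%. The lowest shares in CONTROL 3 and CONTROL ICI 3, 18.4% and 30.3%, lay at 400 to 800 µm. Each share beyond 800 µm was above that of the section's other kept objects at all distances, 3.81%, 6.85% and 3.71%. The share among other objects was not taken by distance.

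Members held fewer transcripts than other objects in each of the 3 sections. The median member had 27 transcripts in CONTROL 3, 3 in CONTROL ICI 3 and 14 in MELANOMA ICI 1. The median of the other kept objects was 44, 14 and 26. The difference was largest in CONTROL ICI 3, the section with the fewest transcripts, where the median member held 0.214 times the transcripts of the median other object, against 0.614 times in CONTROL 3 and 0.538 times in MELANOMA ICI 1. The mean log2 ratio was -1.27 ± 0.83 (SD, n = 3 sections), a fold of 0.414, lower in 3 of 3 sections (two-sided exact sign-flip p = 0.25, the smallest that 3 sections allow). Without CONTROL ICI 3 the mean log2 ratio was -0.80. Because 3 sections cannot reach a threshold of 0.05, the counts of sections and the spread stand in place of a call for all 5 measures.

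Fewer transcripts did not come with smaller outlines. The median volume of members was 1880 µm3 in CONTROL 3, 1811 µm3 in CONTROL ICI 3 and 1878 µm3 in MELANOMA ICI 1, against 1475, 1268 and 1444 µm3 among other objects. This is a description, since a large outline leaves less room for other centres within a fixed radius. Transcripts per 100 µm3, which relate the count to the size, were 1.64, 0.225 and 0.889 in members and 3.30, 1.11 and 1.98 in other objects. The mean log2 ratio of this density was -1.49 ± 0.71 (SD, n = 3 sections; fold 0.356), lower in 3 of 3 sections (exact sign-flip p = 0.25).

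The share of members without a transcript was highest in the shallowest section. In CONTROL 3, 13.7% of members had no transcript against 2.46% of other objects. In CONTROL ICI 3 the shares were 35.7% and 8.07%, and in MELANOMA ICI 1 they were 15.3% and 2.71%. At the other end, 73.7%, 32.5% and 60.8% of members had at least 10 transcripts, against 88.6%, 59.8% and 78.5% of other objects. Objects without a transcript were therefore more frequent among members in the deepest and the shallowest section alike.

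Stains and shape differed in the same direction in every section. Median DAPI per µm3 was 255965 in members of CONTROL 3, 135599 in CONTROL ICI 3 and 260471 in MELANOMA ICI 1, against 407459, 367679 and 410238 in other objects (mean log2 ratio -0.92 ± 0.45, SD, n = 3; exact sign-flip p = 0.25). Median PolyT per µm3 was 249597, 240047 and 255433 in members against 292604, 314833 and 306017. Its mean log2 ratio was -0.29 ± 0.086 (SD, n = 3; exact sign-flip p = 0.25). No background was subtracted from the stains, so the size of this ratio cannot be set against that of transcript counts. Median anisotropy was 1.24, 1.18 and 1.22 in members against 1.33 in the other objects of each section, so members were rounder (mean log2 ratio -0.13 ± 0.037, SD, n = 3; exact sign-flip p = 0.25).

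When objects with low DAPI were left out on both sides, the difference in transcripts shrank. The remaining members had medians of 36 transcripts in CONTROL 3, 9 in CONTROL ICI 3 and 20 in MELANOMA ICI 1, against 46, 16 and 28 in the other objects with the same limit. The mean log2 ratio was then -0.56, with section values of -0.35, -0.83 and -0.49. Members without a transcript fell to 1.92%, 12.0% and 3.19%. Members with more DAPI thus resembled other objects more closely than all members did, and still lay lower in each section.

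**Figure D3:**
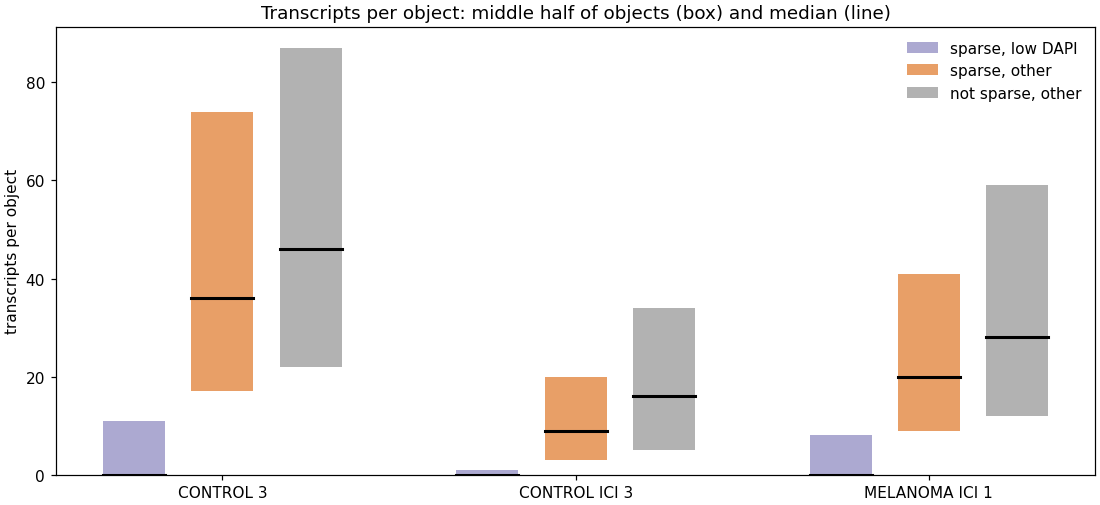
Transcripts per object in the 3 sections for sparse objects with DAPI under 100000 per µm3, other sparse objects, and other objects with DAPI at or above that limit. Boxes span the 25th to 75th percentile and lines mark medians, which are 0 for sparse objects with low DAPI in each section and 36, 9 and 20 for the other sparse objects of CONTROL 3, CONTROL ICI 3 and MELANOMA ICI 1.

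Within single imaging fields, and with low DAPI objects left out, the difference in transcripts per object nearly vanished. Among objects with DAPI at or above 100000, members were compared with other objects of their own field in 421 fields of CONTROL 3, 143 of CONTROL ICI 3 and 413 of MELANOMA ICI 1, each with at least 5 of both and a median above 0. The median field had a log2 ratio of transcripts of -0.08, -0.13 and -0.03, and members were lower in 54.4%, 51.7% and 50.1% of fields. Transcripts per 100 µm3 remained lower, with log2 ratios of -0.33, -0.37 and -0.33 and lower values in 72.0%, 76.2% and 71.4% of fields. Members of a field were larger than their neighbours, with log2 ratios of volume of 0.32, 0.25 and 0.30, so similar counts were spread over larger outlines. With low DAPI objects included, members had the lower median in 57.4% of 469 fields, 69.8% of 172 and 60.9% of 450, fields with a median of 0 included. A ratio could be formed only where both medians were above 0, which left out 44, 44 and 40 of these fields. In the others the median log2 ratio was -0.17 in CONTROL 3, -0.58 in CONTROL ICI 3 and -0.22 in MELANOMA ICI 1.

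The richest members set the sections apart. Objects above the 95th percentile of their section held more than 174 transcripts in CONTROL 3, 77 in CONTROL ICI 3 and 125 in MELANOMA ICI 1. They made up 4.31% of members in CONTROL 3 (exact 95% binomial interval 3.84% to 4.82%) against 5.08% of other objects (4.89% to 5.29%). In CONTROL ICI 3 the shares were 1.14% and 5.89%, and in MELANOMA ICI 1 2.85% and 5.41%, so the richest objects were less frequent among all members in each section. Among members with DAPI at or above 100000 they made up 5.52% in CONTROL 3 (exact 95% binomial interval 4.92% to 6.17%), and among the matching other objects 5.27% (5.06% to 5.48%), so with this limit the shares overlapped within counting error. In CONTROL ICI 3 the shares were then 1.95% (1.36% to 2.70%) and 6.31% (5.88% to 6.76%), and in MELANOMA ICI 1 3.75% (3.28% to 4.28%) and 5.62% (5.39% to 5.86%). With 1 section a group, treatment, section and depth cannot be told apart in this contrast.

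Distance from packed bands gave no common pattern either. Members with DAPI at or above 100000 had median transcripts of 28, 32, 37 and 52 in CONTROL 3 at under 100, 100 to 200, 200 to 400 and over 400 µm from the nearest packed object. The same medians were 12, 8, 9 and 9 in CONTROL ICI 3 and 20, 18, 20 and 20 in MELANOMA ICI 1. Only CONTROL 3, among these 3 sections, had higher medians at each greater distance.

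The measures changed by steps with the number of neighbours, with no break at the limit of the rule. Objects with 0, 1 and 2 neighbours had median transcripts of 11, 23 and 31 in CONTROL 3, 0, 1 and 5 in CONTROL ICI 3, and 5, 12 and 17 in MELANOMA ICI 1. Just outside the limit, objects with 3 neighbours had 38, 7 and 21, and packed objects had 57, 36 and 43. The share with no transcript was 8.06%, 26.0% and 8.99% at 2 neighbours and 4.80%, 17.6% and 5.33% at 3. The most isolated members differed most: with 0 neighbours, 34.5% in CONTROL 3, 58.3% in CONTROL ICI 3 and 35.8% in MELANOMA ICI 1 had no transcript, and 49.4%, 67.4% and 49.1% had low DAPI. Among objects with DAPI at or above 100000, the course from 0 to 2 neighbours was far flatter. The medians at 0, 1 and 2 neighbours were 32, 33 and 38 in CONTROL 3 and 9, 8 and 10 in CONTROL ICI 3. In MELANOMA ICI 1 they were 17, 18 and 21. Outside the members the medians with this limit stayed close to those of all objects. They were 42, 9 and 23 at 3 neighbours and 58, 36 and 44 among packed objects, in the same order of sections.

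**Figure D4:**
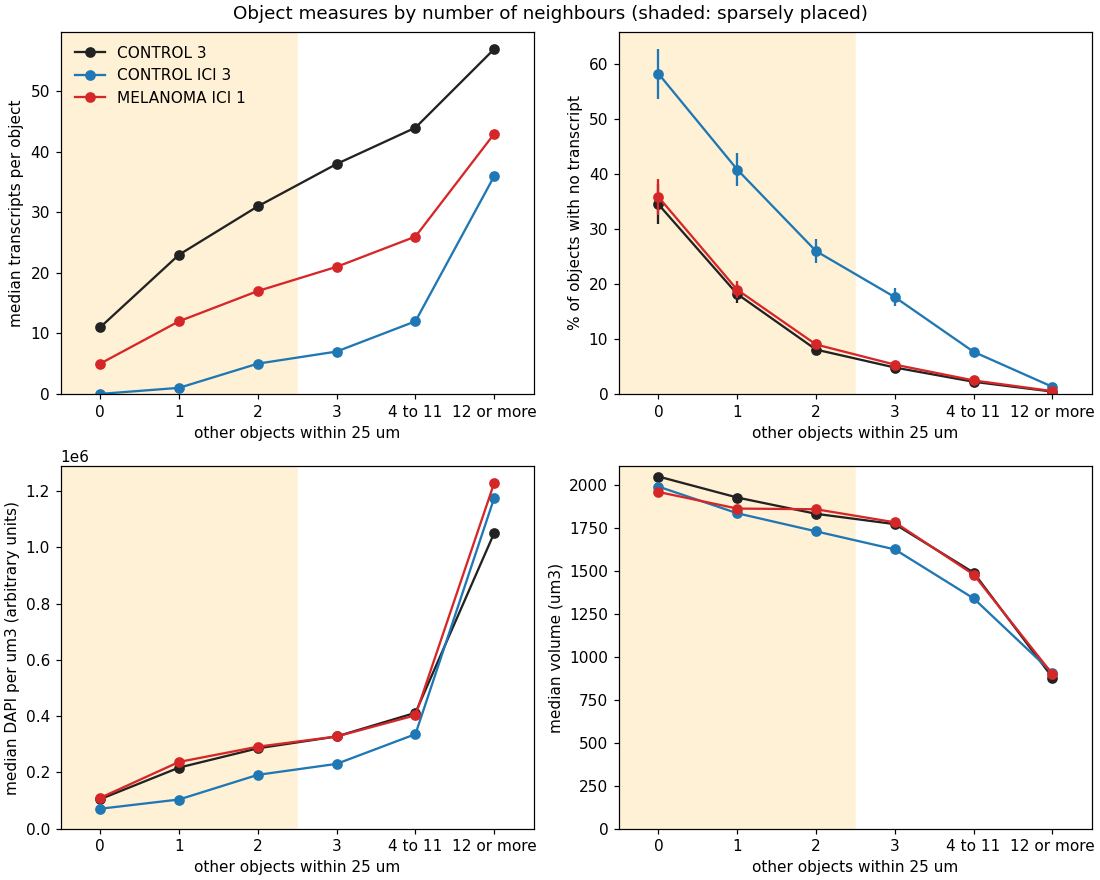
Median transcripts per object, percentage of objects with no transcript (bars are exact 95% binomial intervals), median DAPI per µm3 and median volume by the number of other objects within 25 µm, for the 3 sections; the shaded classes of 0, 1 and 2 neighbours are the sparsely placed objects. Median transcripts are higher with more neighbours, from 11 to 57 in CONTROL 3, 0 to 36 in CONTROL ICI 3 and 5 to 43 in MELANOMA ICI 1.

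The 8 sections that the rule did not use gave ratios on the other side of 1. Their objects were smaller and closer together, so the radius was scaled to each section's spacing (15.0 to 18.8 µm), which made 12.1% to 17.5% of objects sparse. At 25 µm only 0.72% to 3.37% would have qualified. Sparse objects there had median transcripts of 9.5, 29, 12, 23, 5, 2, 8 and 20 in CONTROL 1, CONTROL 2, MELANOMA 1, MELANOMA 2, CONTROL ICI 1, CONTROL ICI 2, MELANOMA ICI 2 and MELANOMA ICI 3. The other objects of the same sections had 4, 8, 5, 7, 3, 2, 3 and 6. Sparse objects had more transcripts in 7 of 8 sections and the same median in CONTROL ICI 2.

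The mean log2 ratio of transcripts over these sections was 1.25 ± 0.62 (SD, n = 8), a fold of 2.37 (two-sided exact sign-flip p = 0.0156, Benjamini-Hochberg adjusted over 5 measures 0.0156). Per 100 µm3 it was 0.54 ± 0.25 (SD, n = 8; exact p = 0.00781, adjusted 0.00977), higher in 8 of 8 sections. DAPI per µm3 at 0.34 ± 0.19 and PolyT per µm3 at 0.096 ± 0.070 (SD, n = 8) were higher in 8 of 8 with the same exact p and adjusted p. These values depended on the setting. Within 10 classes of volume the mean log2 ratio of transcripts was 0.20, a fold of 1.15 (exact sign-flip, adjusted p = 0.125), and those per 100 µm3 (0.17, adjusted p = 0.125) and of DAPI (0.21, adjusted p = 0.0651) also no longer passed the exact test. With the radius of 25 µm it was 1.01 for transcripts (exact sign-flip, adjusted p = 0.0781), -0.15 for transcripts per 100 µm3, -0.062 for DAPI and 0.028 for PolyT, and none of these passed. Among objects with at least 10 transcripts, the value per 100 µm3 was -0.0084. Anisotropy was lower in 8 of 8 sections (-0.074 ± 0.022, SD, n = 8), as in the 3 sections of the rule, so sparse objects were the rounder ones in 11 of 11 sections.

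The mean log2 ratio of transcripts was -1.27 in the 3 sections and 1.25 in the 8, a contrast given as a description because it was noticed in these values. In the 8 sections sparse objects had median volumes of 382 to 985 µm3 and other objects 272 to 358 µm3, far below the volumes in the run of the rule. Imaging run, object size, radius and the sections themselves cannot be told apart in this contrast.

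**Figure D5:**
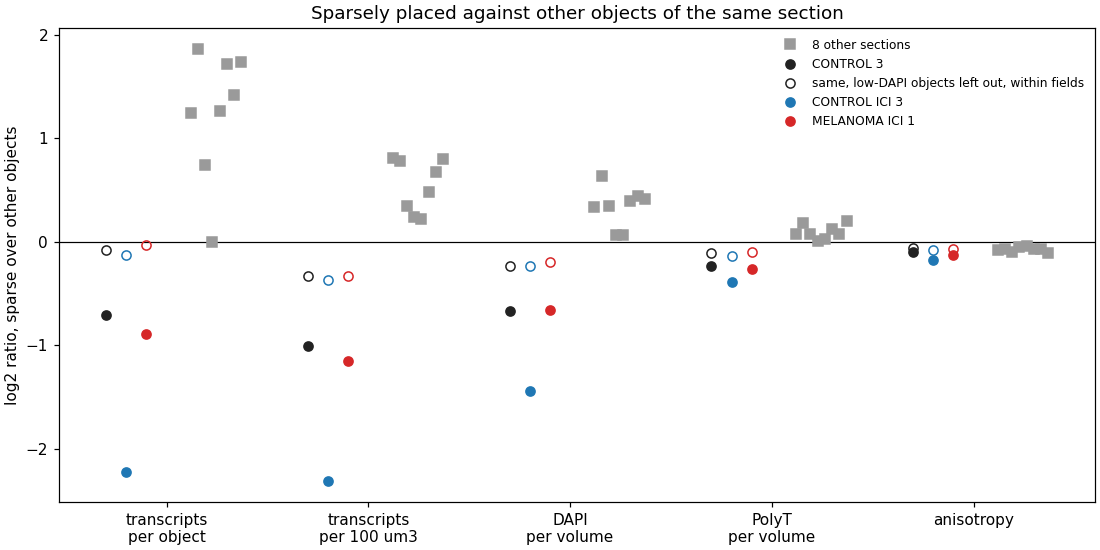
Log2 ratio of section medians, sparsely placed over other objects, for 5 measures. Filled circles are the 3 sections of the rule, open circles the same sections with low DAPI objects left out and ratios taken within imaging fields, and grey squares the other 8 sections with a scaled radius; transcripts lie below 0 in the first 3 and at or above 0 in the 8, while anisotropy lies below 0 in all 11.

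Whether checkpoint inhibitors or the tumour moved the ratio between sparse and other objects was tested over all 11 sections. The log2 ratio of transcripts was 0.80 ± 1.34 (SD, n = 3) in CONTROL, -0.50 ± 1.54 (n = 3) in CONTROL ICI, 1.49 ± 0.32 (n = 2) in MELANOMA and 0.75 ± 1.43 (n = 3) in MELANOMA ICI. The ICI effect averages the treated-minus-untreated difference over both tumour states. It was -1.02 in log2 units (exact permutation p = 0.23, adjusted over 5 measures 0.47). Comparing within imaging runs gave -0.56 (exact permutation p = 0.333), an average over 4 strata of run and tumour state. The difference was negative in 2 strata, those without tumour, and positive in 2, those with tumour. The tumour effect was 0.97 (exact permutation p = 0.24, adjusted 0.52) and within runs 0.56 (exact permutation p = 0.25), positive in 3 of 4 strata of run and ICI state. None of these passed. Each was smaller than the spread between sections of CONTROL, CONTROL ICI or MELANOMA ICI. Each of these groups has 1 section in the run of the rule, so that spread cannot be told apart from the difference between runs. The comparisons within runs could use only 9 of the 11 sections.

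Per 100 µm3 the ICI effect was -0.50 (exact permutation p = 0.455) and -0.26 within runs (exact permutation p = 0.625). The tumour effect was 0.42 (exact permutation p = 0.52) and 0.16 within runs (exact permutation p = 0.708). Within runs, both effects per 100 µm3 were negative in 2 strata and positive in 2. Single sections weighed heavily on these values. Without CONTROL ICI 3 the ICI effects were -0.58 on transcripts and -0.069 per 100 µm3, and the tumour effects 0.54 and -0.015. Without MELANOMA ICI 1 the ICI effects were -0.60 and -0.19, and the tumour effect per 100 µm3 was 0.73. Without CONTROL 3 the tumour effects were 0.59 and 0.12, and the ICI effect per 100 µm3 was -0.80. These 3 sections are those in which sparse objects had fewer transcripts than the rest. The tumour effect per 100 µm3 was 0.65 without CONTROL ICI 1, 0.28 without MELANOMA ICI 2 and 0.25 without MELANOMA ICI 3.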

How the data were processed

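Per the file headers, each section has 1 deposited table with a line per segmented object. Transcript counts are raw counts per object summed over all probes, as the authors deposited them. The stain columns for DAPI and PolyT hold intensity per object in arbitrary units, as deposited by the authors, and were divided by volume. Anisotropy is a deposited ratio of axes. Volume, a size signal that is never negative, and positions carry no unit per the file headers and were taken as µm3 and µm, as the authors deposited them. Other deposited columns, such as the score of solidity, support no result. For the segmentation software, nothing is given in the sources used here.

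Members and comparisons were chosen with earlier results of these data known. No gene is named, since the tables used here list none. The measures and neighbour classes described are those of the written plan, with these added after the values were seen: the DAPI limit of 100000 and everything split by it, the contrast of runs, and leaving out squares with few transcripts or low DAPI or objects near another section. Each section gave 1 log2 ratio of medians, members over other kept objects. Sections were tested by two-sided exact sign-flip, and group effects by exact permutation within strata, with Benjamini-Hochberg adjustment over 5 measures. Runs were read from the leading digits of object identifiers. The tests were tried on simulated data. Alternatives were other radii, neighbour, volume, edge and transcript limits, means, classes of volume, fields, DAPI limits, sections left out, runs and replicate blocks. Python 3.11.15, numpy 2.4.6, scipy 1.17.1 and pandas 2.3.3 were used.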

Additional observations from a re-analysis of the deposited data

How the results depend on the processing

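In the 3 sections of the rule, all 110 alternative values of the 5 measures kept the direction. The mean log2 ratio of transcripts ran from -2.26 (radius 30 µm) to -0.08 (low DAPI left out, within fields), with -1.996 at 1 neighbour or fewer, -0.96 at 3 or fewer, -0.70 at 20 µm and -0.42 among objects with at least 10 transcripts. With 1 section left out it was -1.56 to -0.80. In the 8 other sections 67 of 75 alternative values kept direction and side of the threshold. At 25 µm transcripts were 1.01 (exact sign-flip, adjusted p = 0.0781) and PolyT 0.028, no longer past the threshold, and transcripts per 100 µm3 (-0.15) and DAPI (-0.062) reversed. Among objects with at least 10 transcripts, transcripts per 100 µm3 reversed to -0.0084. Within 10 classes of volume, transcripts (0.20), transcripts per 100 µm3 (0.17) and DAPI (0.21) no longer passed. The causes were not tested.

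For the ICI and tumour effects on transcripts and transcripts per 100 µm3, 63 of 64 alternatives kept the direction of the averaged effect, none past the threshold. Single strata did not all keep it. Without CONTROL ICI 3 the tumour effect also changed sign for DAPI (-0.0028) and anisotropy (-0.00038). With 1 section left out, the ICI effect ranged from -1.39 to -0.58 on transcripts and -0.80 to -0.069 per 100 µm3, and the tumour effect from 0.54 to 1.38 and from -0.015 to 0.73. With the replicate number as a block the ICI effects were -1.27 (exact permutation p = 0.0625, the smallest possible; adjusted 0.208) and -0.69, and the tumour effects 0.72 and 0.23. Whether the numbers pair the sections cannot be told from these values. Deviations of 15 same-numbered pairs correlated from -0.98 to 0.91, with 5 above 0.1. Each correlation rests on only 5 measures and mixes imaging runs. The number of sections, 3 in the run of the rule, limits precision, and in CONTROL ICI 3 medians of a few transcripts limit ratios.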
